A study of Mus musculus with 15 samples.

Results

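The Toll-like receptor genes described here are 10 of the 24656 genes in the deposited table: Tlr1, Tlr2, Tlr3, Tlr4, Tlr5, Tlr6, Tlr7, Tlr8, Tlr9 and Tlr13. They were chosen by gene symbol, with no threshold on their values, although the list was drawn up with earlier results of these data known. Each symbol matched 1 row. Of the other mouse members of the family, Tlr11 and Tlr12 are also listed and are given beside them.

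Toll-like receptors are sensors of the innate immune system that bind molecules of microbes or of damaged cells. Those that face the outside of the cell bind lipids and proteins, and those held in endosomes bind nucleic acids. Both kinds signal through adaptor proteins to the NF-kB and interferon regulatory factors, which switch on cytokine genes. In the ovary they are known mainly from macrophages and other leukocytes, and several of them also from granulosa cells and the surface epithelium.

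Polyadenylated RNA was sequenced from 1 ovary of each of 15 female UM-HET3 mice, a genetically heterogeneous stock bred from several inbred strains, so that each mouse is genetically distinct. The 5 untreated controls of 6 months of age are called the 6-month mice, and the 5 untreated controls of 12 months of age the 12-month controls. The third group of 5, also 12 months old, received canagliflozin, an inhibitor of the sodium-glucose cotransporter of the kidney, from 6 to 12 months of age. The question, as the series states it, is how this drug bears on the aging of the ovary, with the 6-month mice and 12-month controls as the measure of age.

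Values are in size-factor-normalised reads, which are the reads of a gene divided by 1 scaling factor per library. Between 8.47 and 13.6 M reads were recovered for each library. The labels' protocol names RNA extraction only for the 12-month groups, so age and any difference in handling of the 6-month ovaries cannot be told apart. Markers of the labelled tissue were present: all 6 granulosa cell, 5 luteal cell, 4 theca cell and 8 oocyte markers were above 0 in every library. In whole-ovary RNA, fewer cells of a type and less RNA per cell cannot be told apart, and this holds for every difference below.

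1 library was low across these genes. 12-month control replicate 3 had the lowest value of its group for 9 of the 10 receptor genes, and its values summed to 178 against 447 in the highest library of that group. Its summed red cell markers were 18087, against 168 to 4300 in the other 12-month controls, and its summed macrophage markers were 2648, against 4263 to 6475. No single receptor gene was outlying in it or in any other library: Dixon's ratio passed its critical value of 0.71 in 0 of 30 groups of 5. The results it moves most are also given without it. Leaving it out lowers the differences of the canagliflozin group from the 12-month controls. The ranges of these differences over the alternative fits are given at the end.

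Of the 10 genes, Tlr9 was lower in both 12-month groups than in the 6-month mice, and Tlr7 was lower in the canagliflozin group than in the 6-month mice. None of the 10 passed the test between the canagliflozin-treated mice and the 12-month controls. The 5′ ends of 3 genes of the family are shown because the results turn on them: Tlr9 and Tlr12, which fell with age, and Tlr3, which had the highest level per kb of the 10 and passed no test. The sequences are the RefSeq promoters of GRCm38.p6, from 250 bases before to 50 after the gene's start, read along the gene's strand. Tlr9 lies at chr9:106222348-106222647 on the plus strand, Tlr12 at chr4:128618570-128618869 on the minus strand and Tlr3 at chr8:45410331-45410630 on the minus strand. Capitals mark matches to the motifs described next.
Tlr9: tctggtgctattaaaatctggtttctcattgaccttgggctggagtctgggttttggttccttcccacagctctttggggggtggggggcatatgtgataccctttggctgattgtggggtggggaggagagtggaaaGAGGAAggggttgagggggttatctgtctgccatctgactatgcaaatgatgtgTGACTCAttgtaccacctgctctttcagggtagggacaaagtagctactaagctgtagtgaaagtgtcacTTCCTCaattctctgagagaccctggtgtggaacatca
Tlr12: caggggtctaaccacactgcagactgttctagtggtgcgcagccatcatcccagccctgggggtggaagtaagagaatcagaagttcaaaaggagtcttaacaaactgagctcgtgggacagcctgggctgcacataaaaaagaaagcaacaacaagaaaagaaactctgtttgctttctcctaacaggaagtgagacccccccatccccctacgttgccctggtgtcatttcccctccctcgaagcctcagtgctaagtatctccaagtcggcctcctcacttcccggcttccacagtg
Tlr3: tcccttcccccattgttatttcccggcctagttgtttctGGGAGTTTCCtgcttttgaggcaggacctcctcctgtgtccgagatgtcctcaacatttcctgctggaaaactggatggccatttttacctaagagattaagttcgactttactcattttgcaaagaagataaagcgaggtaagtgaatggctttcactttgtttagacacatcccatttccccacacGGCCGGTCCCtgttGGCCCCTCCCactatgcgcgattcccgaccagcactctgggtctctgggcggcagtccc

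The 4 motifs were searched on both strands: GGGA, any 4 bases and CC for NF-kB, GAGGAA for the myeloid and B cell factor PU.1, TGANTCA for AP-1 and GAAA, any 2 bases and GAAA for interferon-responsive elements. A promoter entry was found for 8 of the 10 receptor genes, and not for Tlr4 and Tlr7. Tlr1 and Tlr6 had more than 1 window, and each held its matches in only 1 of them. A gene was counted if any of its windows held a match, while the shares of all promoters are per window, so the 2 are not quite alike. The Tlr9 window held 2 PU.1 matches, 1 on either side of the start, and 1 AP-1 match. Of the 8 genes, 4 held a PU.1 match (Tlr1, Tlr8, Tlr9 and Tlr13), beside 28.3% of the 32851 promoters in the RefSeq table, and 1 held an AP-1 match, beside 7.81%. The NF-kB letters were found in 3 genes (Tlr2, Tlr3 and Tlr5), beside 20.7% of all promoters, with 3 matches in the Tlr3 window. The interferon-responsive letters were found in Tlr6 only, as 2 overlapping matches, beside 3.44% of all promoters. The Tlr12 window held none of these 4 letter patterns. A match describes the letters of a window and is not evidence of binding. The genome build named for the expression table is mm39, so these GRCm38 coordinates are not those of the authors' counting.

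All 10 genes were weakly expressed in the whole ovary. Their mean levels over the 15 libraries lay between the 1.16th percentile (Tlr8) and the 30.6th percentile (Tlr3) of the 17569 genes tested, which were those with at least 10 normalised reads in at least 5 libraries. Tlr8 rested on 1 to 19 recovered reads per library, Tlr9 on 2 to 32, Tlr1 on 5 to 32, Tlr5 on 5 to 40 and Tlr7 on 7 to 43. Tlr8 and Tlr9 were the members nearest the floor: Tlr8 reached 10 normalised reads in 6 libraries and Tlr9 in 5. Those 5 were the 5 libraries of the 6-month mice, so Tlr9 entered the test only through the group in which it was high.

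Per kb of the longest coding transcript, the order of the mean levels over 15 libraries was Tlr3, Tlr2, Tlr6, Tlr4, Tlr13, Tlr1, Tlr7, Tlr5, Tlr9 and Tlr8. Tlr3, the endosomal receptor for double-stranded RNA, stood at 19.2 normalised reads per kb. Tlr2, Tlr6 and Tlr4 followed with 13.1, 12.8 and 12.5 per kb, and their order was not stable between mice: Tlr2 exceeded Tlr6 in 9 of 15 libraries, and Tlr6 exceeded Tlr4 in 6 of 15. Tlr3 exceeded Tlr2 in 14 of 15 libraries, and Tlr4 exceeded Tlr13 in 12 of 15. Tlr13 (7.94 per kb), Tlr1 (5.99), Tlr7 (5.41) and Tlr5 (3.98) each exceeded the next in 9 or 10 of 15 libraries. Tlr9 at 2.80 and Tlr8 at 2.58 per kb were the lowest of these pooled means, and Tlr9 exceeded Tlr8 in 6 of 15. Their place depended on the group. Tlr9 had the lowest mean with canagliflozin (0.854 per kb, beside 1.75 for Tlr8) and in the 12-month controls (1.33, beside 2.35 for Tlr8). In the 6-month mice Tlr9 averaged 6.23 per kb, above Tlr8 (3.65) and Tlr5 (3.13), which was the lowest there. Tlr12, outside the 10, averaged 22.6 per kb and Tlr11 2.35 per kb.

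**Figure D1:**
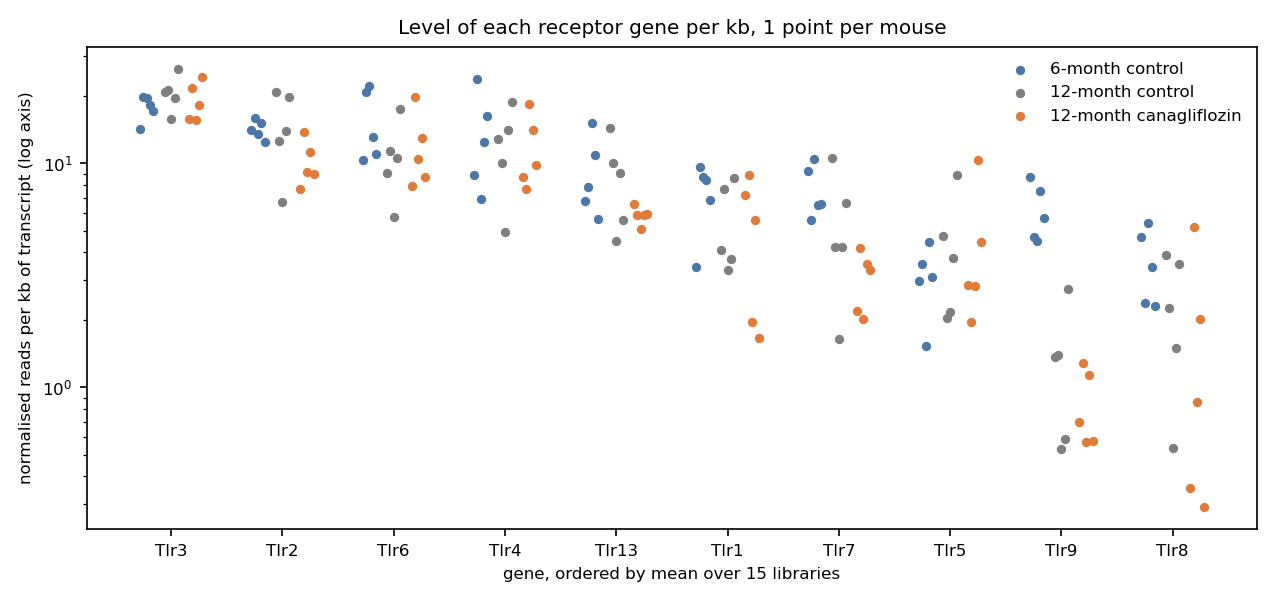
Level of each of the 10 receptor genes in normalised reads per kb of the longest coding transcript (log axis), 1 point per mouse, coloured by group, with genes ordered by their mean over 15 libraries. Tlr3 has the highest pooled mean (19.2 per kb) and Tlr8 the lowest (2.58 per kb), although Tlr9 is lowest in both 12-month groups and Tlr5 in the 6-month mice. The Tlr9 points of the 6-month mice lie above those of both 12-month groups.

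Among the endosomal receptors, Tlr9 binds DNA rich in unmethylated CpG. In the 6-month mice it was 30.3, 16.4, 15.6, 26.3 and 19.8 normalised reads in the 5 mice. In the 12-month controls it was 4.77, 4.85, 1.84, 2.05 and 9.55, from 2 to 11 recovered reads. In the canagliflozin group it was 2.43, 4.47, 1.97, 3.97 and 2.00, from 2 to 4 recovered reads. Every 6-month ovary was above every 12-month ovary of either group, while both 12-month groups overlapped. The means were 21.7 ± 6.42 in the 6-month mice, 4.61 ± 3.11 in the 12-month controls and 2.97 ± 1.17 in the canagliflozin group (SD, n = 5 each).

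Between the 12-month controls and the 6-month mice, 1 of the 10 receptor genes passed the test, and it was Tlr9; of all genes tested, 12.4% passed. The test here and below is limma on log2(value + 1) over all 15 libraries, with Benjamini-Hochberg adjustment over the 17569 genes and a threshold of 0.05. Tlr9 fell by 2.14 on that scale (standard error 0.38, 95% interval −2.94 to −1.34), or 4.41-fold, with a limma adjusted p of 0.00214. Because Tlr9 passed the filter only through the 6-month mice, the fit was repeated without any filter, and the adjusted p was 0.00200. Without 12-month control replicate 3 the difference was −1.94 with an adjusted p of 0.00605. Over 23 alternatives Tlr9 stayed past the threshold in all 23, with differences from −2.41 to −1.50 and adjusted p from 9.03e-05 to 0.00872.

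Against the same 6-month mice, the canagliflozin group had a Tlr9 difference of −2.52 on the log2 scale, 5.73-fold lower, with a limma adjusted p of 0.000276, and of 0.000223 with no filter on low values. The 2 comparisons share the 6-month libraries, so that both rest on the same high values. Between the canagliflozin-treated mice and the 12-month controls the Tlr9 difference was −0.38, with a 95% interval from −1.18 to 0.42 and a limma adjusted p of 0.758 (−0.58 and 0.499 without 12-month control replicate 3). At 2 to 11 recovered reads per library, the data do not tell no difference between these 2 groups from a difference within that interval. As a share of the summed per-kb level of the 10 genes, Tlr9 was 6.56% ± 2.64 in the 6-month mice, 1.44% ± 0.598 in the 12-month controls and 1.13% ± 0.270 in the canagliflozin group (SD, n = 5 each).

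**Figure D2:**
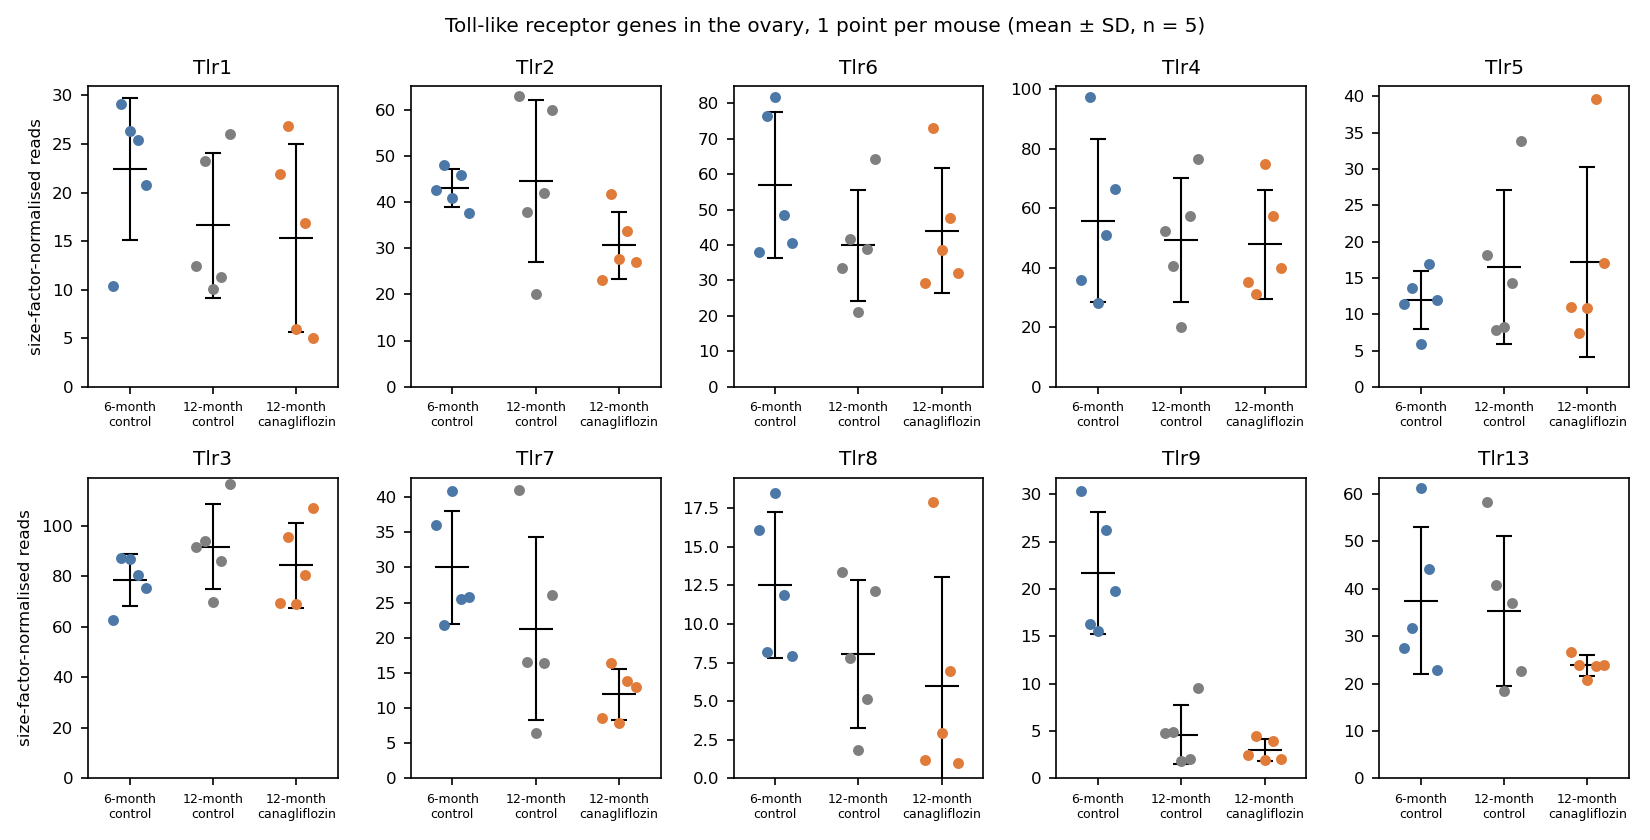
Normalised reads of each of the 10 receptor genes in the 6-month mice, 12-month controls and canagliflozin-treated mice, 1 point per mouse, with the mean and SD (n = 5) as bars and axes that start at 0, where the lower bar of Tlr8 in the canagliflozin group ends. The 5 Tlr9 values of the 6-month mice (15.6 to 30.3) lie above all 10 values of the older mice, while Tlr4, Tlr5 and Tlr6 overlap in all 3 groups.

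Tlr7, an endosomal receptor for single-stranded RNA, was 36.0, 21.8, 40.9, 25.4 and 25.8 normalised reads in the 6-month mice. It was 41.1, 16.5, 6.43, 16.4 and 26.1 in the 12-month controls and 8.52, 16.4, 7.89, 13.9 and 13.0 in the canagliflozin group. The 5 canagliflozin values were all below the 5 values of the 6-month mice, and the 12-month controls overlapped both groups and spread the most. The group means were 30.0 ± 8.08 in the 6-month mice, 21.3 ± 13.0 in the 12-month controls and 11.9 ± 3.63 with canagliflozin (SD, n = 5 each).

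Between the canagliflozin group and the 6-month mice, 2 of the 10 receptor genes passed the test, Tlr7 and Tlr9, both lower; of all genes tested, 28.4% passed. Tlr7 fell by 1.27 on the log2 scale (standard error 0.38), or 2.41-fold, with a limma adjusted p of 0.0198. The call was kept in 21 of 23 alternatives, with adjusted p from 0.00523 to 0.0603. It was lost without canagliflozin replicate 3 (−1.15, adjusted p 0.0516) and in edgeR on 12 libraries (−1.51, adjusted p 0.0603). This comparison combines 6 months of age with 6 months of treatment. The Tlr7 difference between the 12-month controls and the 6-month mice was −0.66 (95% interval −1.46 to 0.14, adjusted p 0.280), and that between the canagliflozin-treated mice and the 12-month controls was −0.61 (−1.41 to 0.19, adjusted p 0.622). Without 12-month control replicate 3, which had the lowest Tlr7 of its group, these became −0.32 (adjusted p 0.593) and −0.96 (adjusted p 0.230), both still short of the threshold.

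Tlr8, the X-linked neighbour of Tlr7 in the nucleic acid sensing group, was 16.1, 8.18, 18.5, 11.9 and 7.93 normalised reads in the 6-month mice. It was 13.4, 7.76, 1.84, 5.13 and 12.2 in the 12-month controls and 1.22, 17.9, 2.96, 6.94 and 1.00 in the canagliflozin group. Canagliflozin replicate 2 was far above the other 4 of its group and within the range of the 6-month mice, so the groups overlapped. The difference between the canagliflozin group and the 6-month mice was −1.41 (limma adjusted p 0.0830), and of 23 alternatives it passed only without that replicate (−1.90, adjusted p 0.0136). That replicate is also the shallowest library, at 8.47 M reads, and had the highest value of its group for 6 of the 10 receptor genes. The difference from the 12-month controls was −0.69 (adjusted p 0.713), and −1.05 (adjusted p 0.419) without 12-month control replicate 3.

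Tlr13, which binds bacterial ribosomal RNA, was 27.5, 31.8, 61.4, 44.1 and 22.8 in the 6-month mice and 58.2, 40.7, 18.4, 36.9 and 22.6 in the 12-month controls. In the canagliflozin group it was 26.8, 23.8, 20.7, 23.8 and 24.0. The canagliflozin values were narrowly grouped (SD 2.14) and lay at the low end of the wide control ranges (SD 15.5 and 15.9), which they overlapped. The differences were −0.55 from the 6-month mice (limma adjusted p 0.189) and −0.44 from the 12-month controls (adjusted p 0.661), the latter −0.64 (adjusted p 0.351) without 12-month control replicate 3.

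Tlr3 ranged from 62.6 to 87.2 normalised reads in the 6-month mice, from 69.8 to 116 in the 12-month controls and from 69.1 to 107 in the canagliflozin group. All 3 ranges overlapped, and this gene had the narrowest interval of the 10: the canagliflozin group differed from the 12-month controls by −0.12, with a 95% interval from −0.48 to 0.23. The 12-month controls differed from the 6-month mice by 0.21 (limma adjusted p 0.450). An annotated gene on the opposite strand, Gm45542, overlaps Tlr3 and shares 5.30% of its 50-base windows. The libraries were directional per the labels' protocols, but whether the counting used strand is not given in the sources used here.

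Of the cell-surface receptors, Tlr2 pairs with Tlr1 or Tlr6 to bind bacterial lipoproteins. Tlr2 was 42.7, 48.1, 40.9, 45.8 and 37.7 in the 6-month mice, 63.0, 37.8, 20.2, 42.0 and 59.9 in the 12-month controls and 23.1, 41.7, 27.6, 33.7 and 27.0 in the canagliflozin group. Of the canagliflozin libraries, 4 lay below all the 6-month mice, and replicate 2 lay within their range. The difference was −0.50 from the 6-month mice (limma adjusted p 0.166) and −0.45 from the 12-month controls (95% interval −1.01 to 0.10, adjusted p 0.609). Without 12-month control replicate 3 the latter was −0.70 (adjusted p 0.198).

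Tlr1 ranged from 10.4 to 29.1 in the 6-month mice, 10.1 to 26.1 in the 12-month controls and 5.0 to 26.8 with canagliflozin. Tlr6 ranged from 37.9 to 81.8, 21.1 to 64.3 and 29.2 to 73.0 in the same groups. Neither separated any pair of groups, and their limma adjusted p ran from 0.249 to 0.895 over the 3 comparisons. The 2 genes lie side by side on chromosome 5, and 454 of the 3332 windows of 50 bases in Tlr1 (13.6%) also occur in Tlr6, so the split of reads between them is uncertain.

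Tlr4, the receptor for bacterial lipopolysaccharide, ranged from 28.2 to 97.2 normalised reads in the 6-month mice, 20.2 to 76.4 in the 12-month controls and 31.3 to 75.0 with canagliflozin. Each group spread widely and overlapped both others, and the canagliflozin group differed from the 12-month controls by −0.00064 with a 95% interval from −0.79 to 0.79. Tlr5, the receptor for flagellin, ranged from 5.84 to 17.0, 7.76 to 33.9 and 7.45 to 39.7 in the same order of groups. Its differences from the 6-month mice were 0.31 in the 12-month controls (limma adjusted p 0.703) and 0.32 in the canagliflozin group (adjusted p 0.618).

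Between the canagliflozin-treated mice and the 12-month controls, 0 of the 10 receptor genes passed the test, and 0 of the 10 had an unadjusted p under 0.05; of all genes tested, 0.00569% passed, which is 1 gene. At an unadjusted p under 0.05 that comparison held 1616 of all genes, and edgeR and DESeq2 on recovered reads also called 0 of the 10. The 10 differences lay between −0.69 (Tlr8) and 0.15 (Tlr6), and 8 of them were negative. Their median was −0.32, beside −0.0019 over all genes tested. The median of the 10 was −0.30 between the 12-month controls and the 6-month mice and −0.53 between the canagliflozin group and the 6-month mice, beside 0.0039 and 0.0097 over all genes. The 3 comparisons share libraries, and the members' differences are described here without a test of the list. The 10 values of a library summed to 370 ± 50.2 in the 6-month mice, 328 ± 101 in the 12-month controls and 284 ± 45.8 with canagliflozin (SD, n = 5 each), with overlapping ranges. Without 12-month control replicate 3 the other 4 of that group summed to 365 ± 65.1 (SD), beside 370 in the 6-month mice, so the lower mean of the 12-month controls rests largely on this 1 library. Without it the median of the 10 was −0.10 with age, with 5 of 10 negative, and −0.50 between the canagliflozin-treated mice and the 12-month controls, with 10 of 10 negative and 0 past the threshold. This library was singled out because these same genes were low in it. Leaving it out therefore lowers the differences from the 12-month controls by construction, and the count of negative ones is a description only.

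**Figure D3:**
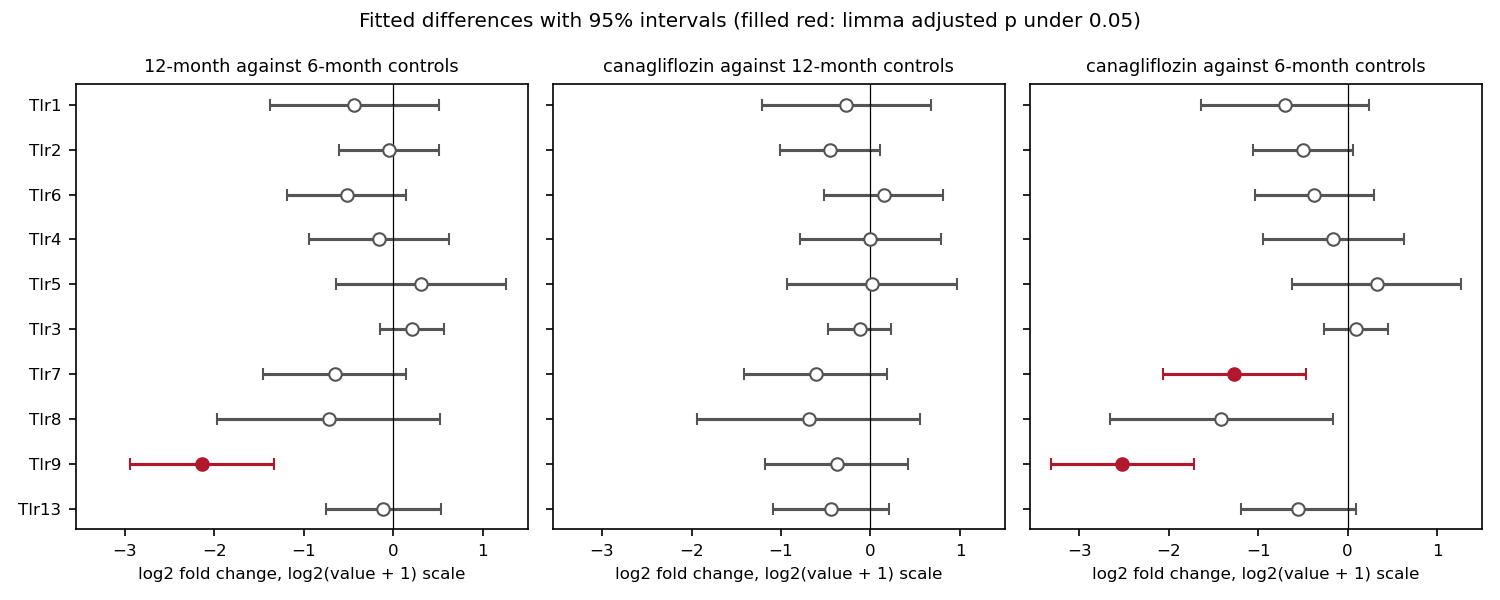
Fitted log2 differences of the 10 receptor genes with 95% intervals (log2(value + 1) scale) in the 3 comparisons; filled red points passed limma's adjusted p threshold of 0.05. Tlr9 (−2.14) passed between the 12-month controls and the 6-month mice, Tlr7 (−1.27) and Tlr9 (−2.52) passed between the canagliflozin group and the 6-month mice, and no gene passed between the canagliflozin-treated mice and the 12-month controls.

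Of the 2 family members outside the 10, Tlr12, which binds a protozoan profilin, was 110, 107, 103, 96.7 and 94.2 normalised reads in the 6-month mice. It was 66.8, 56.3, 49.6, 41.0 and 87.7 in the 12-month controls and 38.9, 64.1, 53.3, 43.6 and 65.1 with canagliflozin. Every 6-month value was above every 12-month value. Tlr12 fell by 0.80 between the 6-month mice and 12-month controls (limma adjusted p 0.0155) and by 0.96 between the 6-month mice and the canagliflozin group (adjusted p 0.00235), and differed by −0.16 between the canagliflozin-treated mice and the 12-month controls (adjusted p 0.805). Tlr11 did not reach the filter and was not tested.

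The lists of pathway genes and cell markers that follow are read beside the shares of all genes that passed, 12.4% with age and 28.4% for the canagliflozin group against the 6-month mice. Of the 9 accessory proteins and chaperones, Cd36, a scavenger receptor that hands lipids to Tlr2, rose by 0.72 between the 6-month mice and 12-month controls (limma adjusted p 0.0202), and the other 8 did not pass. In the canagliflozin group against the 6-month mice, Cd180, a receptor-like protein of B cells and macrophages, fell by 1.16 (adjusted p 0.00951) and Ly96, the lipopolysaccharide-binding partner of Tlr4, rose by 0.65 (adjusted p 0.0196). Cd36 had the smallest p of the list between the canagliflozin-treated mice and the 12-month controls, at −0.77 (adjusted p 0.291), followed by Cd180 at −0.58 (adjusted p 0.564). Unc93b1, which carries the endosomal receptors out of the endoplasmic reticulum, averaged 819 ± 142 in the 6-month mice, 772 ± 84.0 in the 12-month controls and 880 ± 165 with canagliflozin (SD, n = 5 each). Its difference between the 12-month controls and the 6-month mice was −0.08 (limma adjusted p 0.756). Cd14, the lipopolysaccharide co-receptor, passed in no comparison (adjusted p 0.478 to 0.953).

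Of the 19 adaptors and kinases, 1 passed between the 12-month controls and the 6-month mice: Tab3, an adaptor of the kinase Tak1, rose by 0.45 (limma adjusted p 0.0260). Against the 6-month mice, the canagliflozin group had 2 higher and 5 lower. Chuk and Ikbkb, the catalytic kinases of the NF-kB pathway, were higher by 0.50 (adjusted p 0.0158) and 0.26 (adjusted p 0.0427). Traf3 fell by 0.44 (adjusted p 0.00827), Irak4 by 0.53, Slc15a4 by 0.43, Ticam1 by 0.34 and Tab2 by 0.26. Slc15a4 is an endolysosomal transporter needed for Tlr7 and Tlr9 signalling, and Ticam1 is the adaptor of Tlr3 and is also used by Tlr4. Myd88, the adaptor shared by the receptors other than Tlr3, averaged 393 ± 46.4 in the 6-month mice, 371 ± 23.8 in the 12-month controls and 381 ± 38.2 with canagliflozin (SD, n = 5 each). Its adjusted p was 0.645 to 0.916 over the 3 comparisons. Between the canagliflozin-treated mice and the 12-month controls the smallest p of this list belonged to Slc15a4 (−0.27, adjusted p 0.562) and Tab2 (−0.14, adjusted p 0.618).

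Of the 11 transcription factors tested, Nfkb2 fell by 0.37 between the 6-month mice and 12-month controls (limma adjusted p 0.0418), and Irf3 was higher by 0.40 in the canagliflozin group than in the 6-month mice (adjusted p 0.00283). Irf5, which acts below Tlr7 and Tlr9, passed in no comparison (adjusted p 0.121 to 0.816). In the comparison of the canagliflozin group with the 12-month controls, Irf3 (0.23, adjusted p 0.468) and Nfkb2 (0.20, adjusted p 0.594) had the smallest p. Of the 12 negative regulators, the ubiquitin ligase gene Rnf216 fell by 0.31 with age (adjusted p 0.0104) and was lower in the canagliflozin group than in the 6-month mice (−0.38, adjusted p 0.00133). Sarm1 was also lower in that second comparison (−0.69, adjusted p 0.0452). Tnfaip3 (−0.46, adjusted p 0.564) and Sarm1 (−0.35, adjusted p 0.662) had the smallest p against the 12-month controls.

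Of the 20 cytokines and effectors that the pathway is known to induce, 9 reached the filter, and 0 of the 9 passed between the 12-month controls and the 6-month mice. Nfkbiz, an NF-kB cofactor, averaged 115 ± 30.2 in the 6-month mice, 161 ± 42.0 in the 12-month controls and 225 ± 29.9 with canagliflozin (SD, n = 5 each). It was higher by 0.98 in the canagliflozin group than in the 6-month mice (limma adjusted p 0.00149), as was the cytokine Il1b by 1.23 (adjusted p 0.0172), while Nos2, the inducible nitric oxide synthase, was lower (−0.80, adjusted p 0.0184). Against the 12-month controls, Nfkbiz differed by 0.51 (adjusted p 0.473) and Il1b by 0.83 (adjusted p 0.514).

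Of the 10 endogenous ligands tested, Bgn, a matrix proteoglycan that Tlr2 and Tlr4 bind, fell by 0.81 between the 6-month mice and 12-month controls (limma adjusted p 0.0176). Against the 6-month mice, the canagliflozin group had lower Bgn (−0.80) and Fn1 (−1.24), and higher Saa3, an acute-phase protein (3.31, adjusted p 0.0156), and Lgals3 (1.14, adjusted p 0.0488). Saa3 spread widely with canagliflozin, from 79.1 to 1457 normalised reads, against 10.7 to 63.5 in the 6-month mice. Saa3 differed from the 12-month controls by 2.14 (adjusted p 0.515) and Lgals3 by 0.69 (adjusted p 0.615).

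Markers of the cells that carry these receptors are given beside the receptor results; their part in them was not tested. Of 13 macrophage markers tested, 2 fell between the 6-month mice and 12-month controls, Adgre1 (−1.31, limma adjusted p 0.00508) and Csf1r (−1.06, adjusted p 0.0105), and 0 passed as higher, beside 12.4% of all genes. The 13 differences with age were 3 positive and 10 negative, with a median of −0.25. In the canagliflozin group against the 6-month mice 4 of 13 were lower (Adgre1, Csf1r, Cd163 and Mrc1), beside 28.4% of all genes that passed in either direction, and against the 12-month controls 0 of 13 passed, with 11 of 13 differences negative. The summed macrophage level of a library was 4528 to 7790 in the 6-month mice, 2648 to 6475 in the 12-month controls (4263 to 6475 without replicate 3) and 2894 to 5420 with canagliflozin. Lyz2, the largest part of that sum, averaged 1794, 1435 and 1194 in the same order.

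B cells are known to carry Tlr9 and Tlr7. The 7 B cell markers summed to 23.4 to 39 normalised reads in the 6-month mice, 43.9 to 53.8 in the 12-month controls and 40.6 to 93.9 with canagliflozin, so that the 6-month mice, where Tlr9 was highest, had the lowest sums. Of the 2 that reached the filter, Blk rose by 2.18 with age (limma adjusted p 0.0270). Of 5 plasma cell markers, 3 rose with age (Igha, Igkc and Jchain). Of 6 dendritic cell markers, Siglech, of plasmacytoid cells that also carry Tlr7 and Tlr9, rose by 1.32 with age (adjusted p 0.0268), from 6.54 ± 5.38 to 15.6 ± 3.41 normalised reads (SD, n = 5 each). Of these 6 markers 3 differences with age were positive and 3 negative, with a median of 0.14, and the 8 listed markers summed to means of 680 in the 6-month mice and 699 in the 12-month controls. Most of that sum was Zbtb46 (577 and 576), so it does not show whether the other markers changed. Clec9a averaged 17.8 and 35.1 and Itgax 50.9 and 42.8 in the same order, and only Siglech passed. The T and NK cell list had 2 of 5 higher with age and 3 of 5 higher with canagliflozin against the 6-month mice, and Cd52 of the 4 general leukocyte markers was higher in the latter. Of those 4 markers 3 differences in that comparison were positive and 1 negative. Laptm5 averaged 489 in the 6-month mice and 338 with canagliflozin, and the 4 summed to means of 781 and 791. None of the markers in these lists was at 0 in every library of a group. Of 8 neutrophil and 6 mast cell markers, 3 and 2 are in the table, and 1 of each was tested.

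Among the other ovarian cell lists, no granulosa, luteal, surface epithelium or red cell marker passed in any comparison. Of 4 fat cell markers, 3 rose with age (Adipoq, Cidec and Fabp4), 2 of 5 stromal genes fell (Col1a1 and Col1a2), and 1 of 6 endothelial genes fell (Cdh5). The 5 stromal differences with age were 1 positive and 4 negative, with a median of −0.11. The 6 endothelial differences with age were 3 positive and 3 negative, with a median of 0.014. Against the 6-month mice, the canagliflozin group had the same 3 fat cell genes higher and Plin1 lower, Emcn and Esam higher and Cdh5 lower, and Col1a1 and Col1a2 lower. It also had lower Ptch1, 1 of 4 theca genes (2 positive and 2 negative differences), Nobox, 1 of 8 oocyte genes (1 positive and 7 negative), and Kit, the 1 gene of the mast cell list tested. The other gene of that list in the data, Fcer1a, averaged 0.79 in the 6-month mice and 1.83 with canagliflozin. Kit alone therefore does not show a change in mast cells. In the comparison of the canagliflozin group with the 12-month controls, 0 markers of any list passed in limma.

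Within groups, the receptor genes followed the macrophage markers to different degrees. After each group's mean was subtracted from the log2 values, the Pearson r over 15 libraries with the summed macrophage level was 0.796 for Tlr7 (Spearman rho 0.693) and 0.715 for Tlr13 (rho 0.614). Without the 2 libraries farthest from the median macrophage level they were 0.709 and 0.70. These were the highest r with macrophages among the receptor genes. The lowest were 0.214 for Tlr4 (rho 0.114) and 0.317 for Tlr1 (rho 0.318), at −0.217 and 0.194 without the 2 libraries. For Tlr9 the r was 0.419 (rho 0.35), and 0.165 without those 2 libraries. With the luteal cell markers, the list with the highest positive r for Tlr9, it was 0.598 (rho 0.575), and 0.711 without the 2 libraries farthest on that measure. Tlr7 also followed other lists, with r 0.694 for the general leukocyte markers and 0.627 for the luteal cell markers. Its rho was 0.707 with the theca cell markers and −0.729 with those of the surface epithelium. By rho, macrophages were therefore not the closest list for Tlr7. For Tlr8 the r was −0.802 with the surface epithelium and 0.548 with macrophages. The points share libraries, depth and cell make-up, so these values are descriptions.

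**Figure D4:**
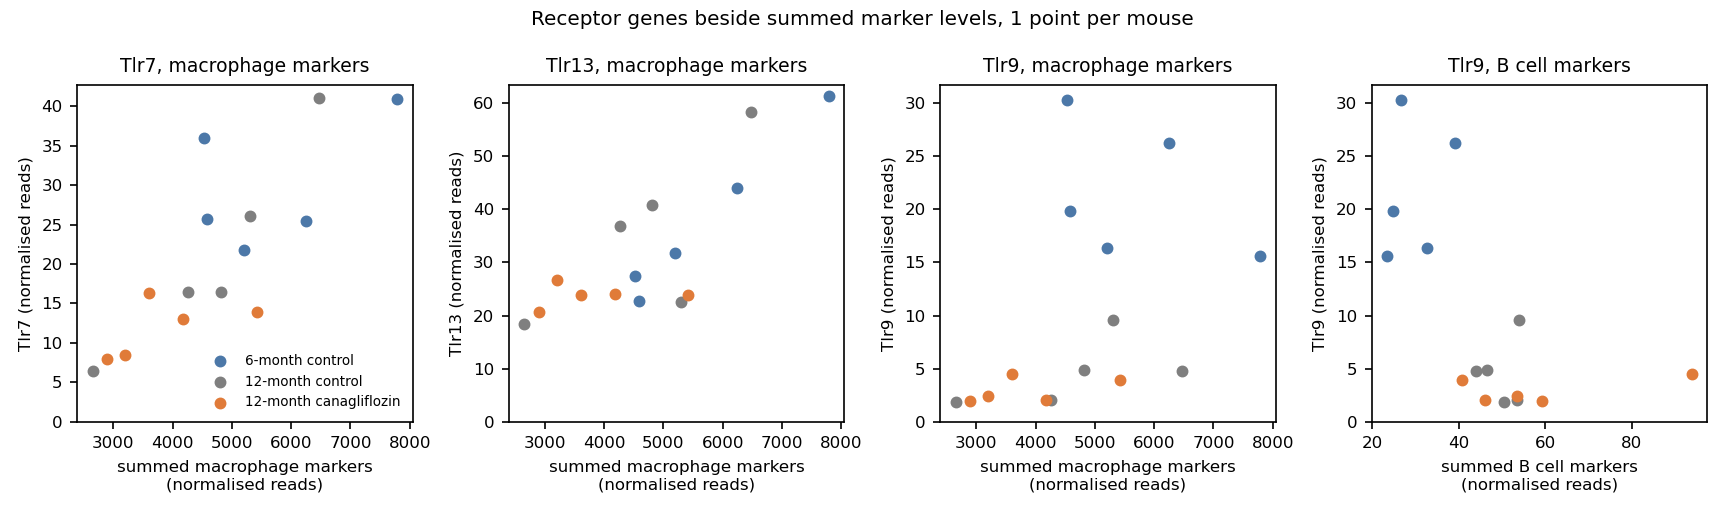
Normalised reads of Tlr7, Tlr13 and Tlr9 against the summed macrophage markers, and of Tlr9 against the summed B cell markers, 1 point per mouse, coloured by group. The summed macrophage level spans 2648 to 7790, and the 6-month mice have the highest Tlr9 beside the lowest summed B cell level (23.4 to 39). The B cell sum rests on low values and does not show whether B cells changed.

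The genes with the most similar pattern within groups were sought among all tested genes by the same r over 15 libraries. They were picked as the largest r of all these genes, so a high r is built into the choice. No chance level was computed, and the known cell type is mentioned for only some of them. Tlr13 was closest to Trem2 (r 0.891, rho 0.821) and Plek (r 0.890, rho 0.929), both known from myeloid cells. Tlr9 was closest to Nol6 (r 0.879, rho 0.854) and Siglec1, a macrophage sialic acid receptor (r 0.840, rho 0.754). Without the 2 farthest libraries the r was 0.865 for Trem2, 0.805 for Plek, 0.829 for Nol6 and 0.666 for Siglec1. Tlr7 was closest to Frmd5 (r 0.906, rho 0.861) and Prex1 (r 0.904, rho 0.768), with 0.671 and 0.744 without the 2 farthest. Tlr8 was closest to Dnm2 (r 0.929) and Map6d1 (r 0.920), and Tlr3 to Khnyn and Enox2 (r 0.914 each). The pairs for Tlr2 were D6Wsu163e and Tmed10-ps, for Tlr6 Abhd18 and Nfic, for Tlr5 Slc9a3r1 and Prdm1 and for Tlr1 Pcgf2 and Ltb4r1, with r from 0.807 to 0.928.

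Among the 10 receptor genes themselves, 42 of 45 pairs had a positive r within groups, with a median of 0.356. The highest was between Tlr7 and Tlr2 (0.845, rho 0.629), which was 0.573 without the 2 farthest libraries. Tlr8 and Tlr2 (0.787, rho 0.80) and Tlr8 and Tlr7 (0.743, rho 0.811) followed, at 0.706 and 0.689 without the 2 farthest. The 45 pairs share the same 15 libraries, among them 12-month control replicate 3, where 9 of the 10 genes were lowest in their group.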

How the data were processed

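The deposited table holds 1 value per gene and library for 15 ovary libraries. The authors' values are a signal, which its low values show to be whole reads scaled by 1 factor per library: divided by the library's smallest step, 99.9878% or more of the values were within 0.1 of a whole read. In 3 libraries the step is too near 1 to tell from rounding. The submitters' processing notes name Partek 11.0 and mm39. The aligner is not given in the sources used here, nor are the counter, annotation and normalization. The read depth in the labels' protocols is far below the recovered totals, and the difference was not resolved.

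Groups come from the sample titles. The test was limma 3.58.1 in R 4.3.3, run with its trend and robust options on log2(value + 1), with 17569 of 24656 genes tested (at least 10 in at least 5 libraries). A fold on this scale understates the change of low genes. edgeR 4.0.16 and DESeq2 1.42.0 were run on recovered reads as alternatives, beside other pseudocounts and filters, the 2 groups alone, a replicate block and each library left out. edgeR on the 12 libraries with a clear step was added after the data were seen. No duplicated library was found: the closest replicates differed by a chi-square of 11.7 per gene. The labels place each library with a separate mouse.

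Replicate numbers recur in the 3 groups, but libraries with the same number did not deviate together on average. Lengths and shared windows of 50 bases come from GENCODE M21 on GRCm38, and promoters from RefSeq. Named genes are the 10 receptors, of each pathway list the called members or otherwise the 2 with the smallest unadjusted p, the fixed genes Myd88, Ticam1, Unc93b1, Cd14, Ly96, Cd180 and Irf5, and for each receptor the 2 most similar genes, of which those of Tlr4 are not reported here. The marker genes named, Tlr11, Tlr12 and Gm45542 were named outside that rule, after their values were seen. Itgam, which 2 rows share, was left out. Fos, Il10, Ifnb1 and the markers outside the table were not analysed here. Members, gene lists and marker lists were chosen with earlier results of these data known.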

Additional observations from a re-analysis of the deposited data

How the results depend on the processing

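Of the 10 receptor genes, the number called was 0 between the canagliflozin-treated mice and the 12-month controls and 1 (Tlr9) between the 12-month controls and 6-month mice in every alternative, except that the stricter filter, at least 50 in 5 libraries, left only 2 of the 10 to test and called 0 with age and 0 for canagliflozin against the 6-month mice. The latter comparison, 2 in the main analysis, gave 1 in edgeR on 12 libraries, chosen after seeing the data, and 1 to 3 with single libraries left out. Of all genes, 1 was called between the canagliflozin-treated mice and the 12-month controls, 9 in edgeR, 63 in DESeq2, 2 with no filter, 0 with only the 2 groups, 3 with the replicate block, 23 in edgeR on 12 libraries and 0 to 37 with single libraries left out (37 without canagliflozin replicate 5); the cause was not tested. The replicate numbers showed no pairing on average: the mean r was −0.0088 for the same number and 0.0023 for different numbers. The 15 same-number pairs had r from −0.30 to 0.25. Of 15 libraries, 6 correlated best with their own number, and no chance level was computed for that count. The replicate block called 2126 genes with age and 4912 for canagliflozin against the 6-month mice, with 1 and 2 receptor genes, and changed no receptor call.

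Direction changed only for differences that never passed. For Tlr2 with age it became 0.055 in DESeq2, 0.054 in edgeR, 0.014 in edgeR on 12 libraries and 0.20 without 12-month control replicate 3. In edgeR on 12 libraries Tlr1 against the 12-month controls became 0.097, Tlr5 −0.73, Tlr5 against the 6-month mice −0.27 and Tlr3 against them −0.012, and Tlr4 against the 12-month controls became 0.00036 with a pseudocount of 0.5. With single libraries left out, the differences from the 12-month controls ran from −0.28 to 0.18 for Tlr4, −0.33 to 0.31 for Tlr5, −0.052 to 0.34 for Tlr6 and −0.53 to 0.027 for Tlr1. Those of the canagliflozin group from the 6-month mice ran from −0.027 to 0.54 for Tlr5, −0.0016 to 0.15 for Tlr3 and −0.37 to 0.071 for Tlr4. Those with age ran from −0.37 to 0.12 for Tlr4, −0.31 to 0.089 for Tlr13 and −0.20 to 0.20 for Tlr2. Depth limits Tlr8 and Tlr9 most, at 1 to 19 and 2 to 32 recovered reads per library. The p-values of the main fit set a difference of means against the spread between mice within groups, 5 mice per group. That spread was pooled over the 15 libraries and moderated across genes, so it is not the spread of any 1 group.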
